A study of Mus musculus with 13 samples.

Results

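Transcripts of the MHC class I antigen presentation pathway were followed in the midbrains of mice treated with the dopaminergic neurotoxin MPTP. The genes were picked by name for their place in the pathway, with earlier results of these data known. They were the heavy chains H2-D1, H2-K1, H2-T23 and H2-Q4, the light chain B2m and the peptide transporter subunits Tap1 and Tap2. The chaperone Tapbp (tapasin) and the immunoproteasome subunits Psmb8 and Psmb9 were also included. These 10 genes were found among 49315 counted genes, and all 10 were among the 19360 genes that passed the filter on low counts (at least 10 counts in at least 3 libraries).

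Bulk RNA-Seq was performed on midbrain tissue of 13 male mice, 1 library per mouse, between 8 and 12 weeks of age on a C57BL/6J background. Every animal carried floxed Ripk3 alleles (Ripk3fl/fl). Cre+ animals also carried Aldh1l1-Cre/ERT2, a tamoxifen-inducible recombinase under an astrocyte promoter, while Cre- littermates lacked it. The study's methods give tamoxifen, at 60 mg/kg on 5 days, for animals with this transgene. They do not say whether Cre- littermates received it too. Mice then received MPTP (20 mg/kg) or saline on 5 days, and tissue was taken 3 days after the last dose. Each of the Cre- Saline, Cre+ Saline and Cre- MPTP groups held 3 mice, and the Cre+ MPTP group held 4. The design asks whether losing the kinase RIPK3, which acts in cell death and inflammatory signaling, from astrocytes changes the tissue response to the toxin.

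The class I pathway displays fragments of a cell's own proteins on its surface, where cytotoxic T cells and NK cells inspect them. Proteasomes cut proteins into peptides, the TAP transporter carries the peptides into the endoplasmic reticulum, and tapasin helps to load them onto a heavy chain paired with β2-microglobulin. Interferons and NF-kB are known inducers of most of these genes. Resting brain cells make little class I, and glia raise it when inflamed.

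Promoter sequences are shown for the members whose levels are set against each other: 3 heavy chains with the same upstream elements, the light chain, and the start region that Tap1 and Psmb9 share. RefSeq promoter windows (GRCm38.p6) were found for 9 of the 10 genes, each running from 250 bases before to 50 bases after an annotated start. Capitals mark matches to the NF-kB motif, to the core of the interferon-stimulated response element (ISRE, GAAANNGAAA) or to the GAS core (TTCNNNGAA), searched on both strands, and all other bases are in lower case. The windows lie at chr17:35262844-35263143 (plus strand) for H2-D1, chr17:34000298-34000597 (minus strand) for H2-K1, chr17:35379367-35379666 (plus strand) for H2-Q4, chr2:122147437-122147736 (plus strand) for B2m and chr17:34187306-34187605 (plus strand) for Tap1.
H2-D1: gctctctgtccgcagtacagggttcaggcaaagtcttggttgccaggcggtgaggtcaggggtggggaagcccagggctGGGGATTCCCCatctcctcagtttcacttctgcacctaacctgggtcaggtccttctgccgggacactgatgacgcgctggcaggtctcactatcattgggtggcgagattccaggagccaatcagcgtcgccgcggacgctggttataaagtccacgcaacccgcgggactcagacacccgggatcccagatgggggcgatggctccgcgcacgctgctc
H2-K1: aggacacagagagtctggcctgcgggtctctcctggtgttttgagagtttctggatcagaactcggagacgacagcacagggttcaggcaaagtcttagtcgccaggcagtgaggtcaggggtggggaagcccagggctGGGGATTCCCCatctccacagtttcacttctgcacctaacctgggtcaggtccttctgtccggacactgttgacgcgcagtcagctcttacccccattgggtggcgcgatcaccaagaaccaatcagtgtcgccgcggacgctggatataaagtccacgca
H2-Q4: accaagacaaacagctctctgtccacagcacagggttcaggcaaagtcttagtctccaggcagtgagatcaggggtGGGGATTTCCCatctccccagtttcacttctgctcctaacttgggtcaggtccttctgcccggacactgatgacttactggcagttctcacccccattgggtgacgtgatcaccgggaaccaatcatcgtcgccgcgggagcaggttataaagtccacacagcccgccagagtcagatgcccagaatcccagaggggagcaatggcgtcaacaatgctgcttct
B2m: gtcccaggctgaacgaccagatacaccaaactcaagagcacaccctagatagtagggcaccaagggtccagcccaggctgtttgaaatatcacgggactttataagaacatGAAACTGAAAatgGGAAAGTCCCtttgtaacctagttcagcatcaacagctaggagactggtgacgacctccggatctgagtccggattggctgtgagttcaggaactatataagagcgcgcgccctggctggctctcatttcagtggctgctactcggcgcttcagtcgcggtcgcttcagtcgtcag
Tap1: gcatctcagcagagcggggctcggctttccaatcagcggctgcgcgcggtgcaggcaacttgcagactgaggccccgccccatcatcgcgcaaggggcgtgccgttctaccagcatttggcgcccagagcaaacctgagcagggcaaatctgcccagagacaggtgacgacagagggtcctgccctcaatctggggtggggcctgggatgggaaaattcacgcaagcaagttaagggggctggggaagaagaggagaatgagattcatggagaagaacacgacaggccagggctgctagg

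The NF-kB motif was present in 4 of the 9 windows (H2-D1, H2-K1, H2-Q4 and B2m), beside 8.46% of all 32851 promoter windows in the table. Counting the annotated start as base 0, it lay at bases -171 to -161 of H2-D1, -111 to -101 of H2-K1 and -174 to -164 of H2-Q4. H2-D1 and H2-K1 shared an unbroken run of 47 bases that contains this element. Exact matches to the ISRE core were found in B2m and H2-T23 (3.44% of all windows) and to the GAS core in Psmb8 (8.3%). Variant forms of these elements were not searched for, so a window without a match is not shown to lack them. A core of the X2 box (TGACG), part of the enhanceosome that NLRC5 uses, was found in 6 of 9 windows (20.8% of all), and an inverted CCAAT box (ATTGG) in 8 of 9 (37.4% of all). Tap1 and Psmb9 are transcribed in opposite directions from neighboring starts and their windows overlap by 275 bases, so their matches to the X2 core and the CCAAT box are the same sites counted for both. No 2 matches of different motifs overlapped. The RefSeq starts of H2-D1, H2-T23, Tapbp, Psmb8 and Psmb9 lie 154 to 3579 bases inside the GENCODE gene, so other starts of these genes are not covered. Those of the other 4 lie within 3 bases of the gene's start. H2-K1 had 2 windows and only the first was used, so its positions hold for that start. These matches are descriptions of the letters in the windows and were not tested as binding sites.

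Libraries held 11489150 to 29397278 gene counts. Markers of the midbrain's dopaminergic neurons were present in every library, at a summed level of 250 to 363 CPM (counts scaled to a common library size with TMM factors). The targeted gene Ripk3 had 4 to 40 counts in Cre- libraries and 4 to 19 in Cre+ libraries, ranges that overlap, so these counts could not check the genotypes. Cre- MPTP replicate 1 stood apart: it had the lowest total and the fewest detected genes (21101, against 25432 to 27186 in the others), and its counts followed the GC content of the transcripts. Relative to the mean of Cre- MPTP replicates 2 and 3, the median gene in this library was lower by -1.22 on the log2 scale below 40% GC and higher by 2.06 above 60% GC. Cre+ MPTP replicate 4 had a summed level of 6334 CPM over 6 muscle genes, against 11.7 to 147 CPM in the other libraries. Results on the class I genes are therefore given with and without these libraries where that matters.

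Levels of the genes relative to one another are given per length, as TPM (length-normalized transcript shares, computed from the counts and the exonic lengths in the count files). In Cre- Saline midbrain the light chain B2m was the most abundant, at 300.8 ± 29.4 TPM (SD, n = 3). The classical heavy chains followed, with H2-D1 at 126 ± 11.6 TPM and H2-K1 at 59.2 ± 8.72 TPM (SD, n = 3), and the ranges of H2-K1 and Tapbp (49.5 ± 3.64 TPM) overlapped. H2-T23, which encodes the nonclassical molecule Qa-1 that presents leader peptides to NK cell receptors, stood at 21.9 ± 2.56 TPM, and Tap2 at 16.8 ± 2.59 TPM. The least abundant members were H2-Q4 (11.5 ± 1.3 TPM), Psmb8 (5.78 ± 0.784 TPM), Tap1 (3.26 ± 0.91 TPM) and Psmb9 (1.84 ± 0.29 TPM). Apart from H2-K1 and Tapbp, each gene lay above the next in every pairing of Cre- Saline libraries, and the Cre+ Saline libraries gave the same order. In Cre- MPTP midbrain H2-Q4 moved from the seventh to the fourth place (140.5 ± 86.6 TPM, SD, n = 3), although neighbors overlapped throughout the upper part of that order. In Cre+ MPTP midbrain H2-Q4 was sixth, at 26.1 ± 2.3 TPM (SD, n = 4), and overlapped H2-T23.

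**Figure D1:**
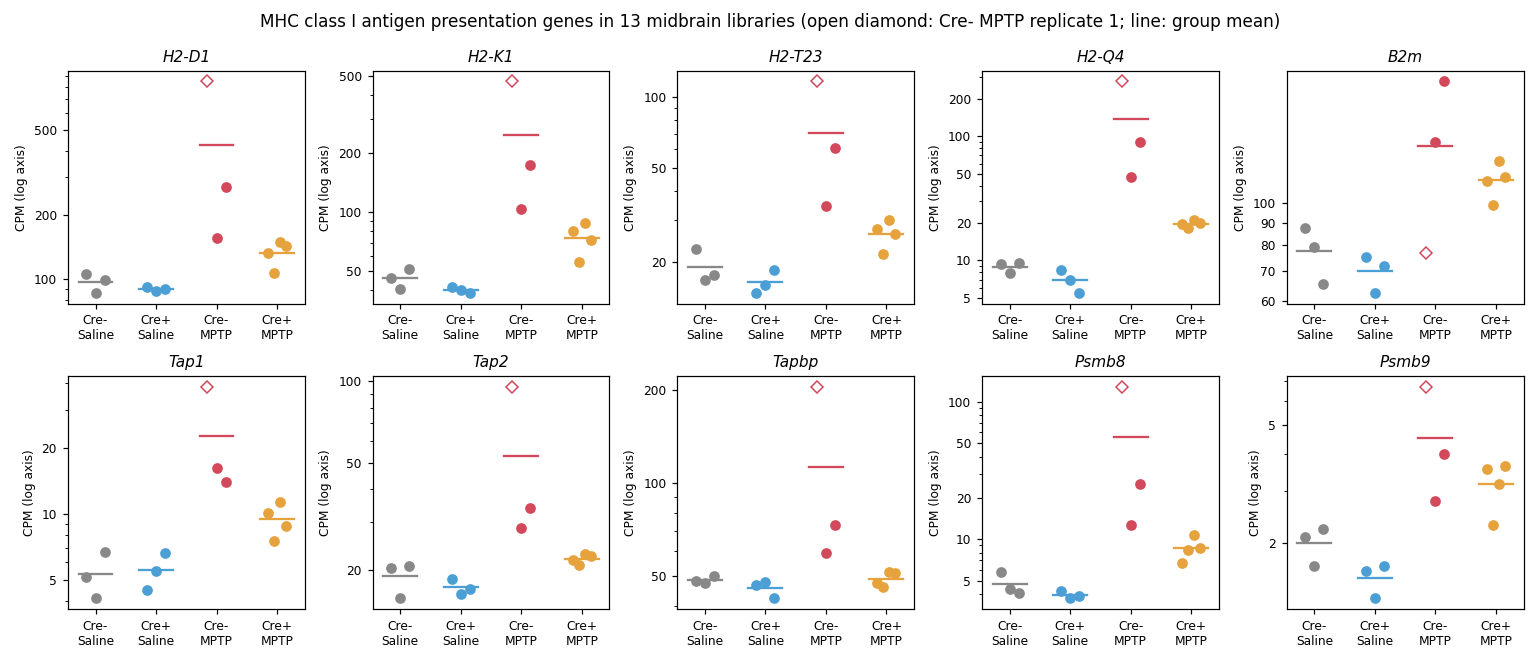
CPM of the 10 genes in each of the 13 libraries (y axis, log scale) by group, with a line at the group mean and an open diamond for Cre- MPTP replicate 1. The Cre- MPTP libraries lie above the Cre- Saline libraries for 9 of the 10 genes, and B2m is the exception because replicate 1 is low (77 CPM).

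In Cre- mice, MPTP raised 7 of the 10 class I genes: the heavy chains H2-D1, H2-K1, H2-T23 and H2-Q4, both transporter subunits, and Psmb8. H2-Q4 and Psmb8 changed the most, by 15.4-fold and 11.6-fold, and Tap2 the least of the 7, by 2.77-fold. The other 3 genes (B2m, Tapbp and Psmb9) had positive fold changes that did not pass the test. Of all tested genes, 2.23% were called higher here by edgeR (quasi-likelihood test, Benjamini-Hochberg adjustment), and the median log2 fold change was 1.99 over the 10 genes and 0.025 over all tested genes.

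The heavy chains bind the peptide and are what T cell receptors recognize. H2-D1 measured 106, 85.7 and 99.1 CPM in the Cre- Saline libraries and 846, 155 and 270 CPM in Cre- MPTP replicates 1, 2 and 3. H2-K1, the other classical heavy chain, measured 46.4, 40.3 and 51.3 CPM with saline and 467, 104 and 175 CPM with MPTP. In both genes the lowest MPTP library exceeded the highest saline library, and replicate 1 was the highest. On the log2 scale H2-D1 rose by 2.13 (SE 0.456, adjusted p = 0.0229, edgeR) and H2-K1 by 2.43 (SE 0.42, adjusted p = 0.00612, edgeR). The nonclassical H2-T23 measured 22.6, 16.8 and 17.6 CPM with saline and 117, 34.5 and 60.7 CPM with MPTP (log2 fold change 1.89, SE 0.34, adjusted p = 0.00791, edgeR). H2-Q4, a heavy chain of the Q region, measured 9.33, 7.89 and 9.53 CPM with saline and 276, 47.3 and 89.4 CPM with MPTP. Its log2 fold change of 3.94 (SE 0.512, adjusted p = 0.00156, edgeR) was the largest of the 10, and even the lowest MPTP library held several times the highest saline value.

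B2m, the light chain that every classical heavy chain needs to reach the surface, measured 87.8, 79.4 and 65.5 CPM with saline and 77, 137 and 188 CPM in Cre- MPTP replicates 1, 2 and 3. Replicates 2 and 3 exceeded all saline libraries and replicate 1 lay among them. Its difference of 0.79 on the log2 scale did not pass (SE 0.252, adjusted p = 0.149, edgeR). Without replicate 1 it was 1.07 (SE 0.148, adjusted p = 0.000518, edgeR).

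The transporter and loading genes move peptides and fit them to the heavy chain. Tap1 measured 5.12, 4.1 and 6.68 CPM with saline and 38.4, 16.2 and 14 CPM with MPTP (log2 fold change 2.1, SE 0.36, adjusted p = 0.00597, edgeR). Tap2, its partner in the transporter, measured 20.4, 15.7 and 20.7 CPM with saline and 95.7, 28.5 and 33.8 CPM with MPTP (log2 fold change 1.47, SE 0.356, adjusted p = 0.0433, edgeR). For both subunits the groups did not overlap, and in CPM replicate 1 exceeded the other MPTP libraries by more than these exceeded saline. On the log2 scale this did not hold for Tap1. Replicate 1 lay 1.34 above the mean of replicates 2 and 3, and the log2 fold change without replicate 1 was 1.51. Tapbp measured 48.2, 47.5 and 50.1 CPM with saline and 205, 59.1 and 73.3 CPM with MPTP. The groups were apart for Tapbp too, but its log2 fold change of 1.2 (SE 0.347) had an adjusted p of 0.101 (edgeR), and it was 0.45 with an adjusted p of 0.0122 (edgeR) without replicate 1. Tapbp is overlapped on the same strand by Zbtb22, over 3422 bases, so reads of the shared part may have been left uncounted. Genes on the opposite strand overlap B2m (5398 bases), H2-T23 (3083 bases), Tap2 (3148 bases), Psmb8 (2139 bases) and H2-Q4 (676 bases). Tap1 and Psmb9 overlap each other by 212 bases. The strand setting is not given, and if strand was ignored, reads there may have been left uncounted too.

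Psmb8 and Psmb9 replace catalytic subunits of the standard proteasome and shift the peptides that it makes. Psmb8 measured 5.79, 4.37 and 4.09 CPM with saline and 129, 12.7 and 25.4 CPM with MPTP (log2 fold change 3.54, SE 0.663, adjusted p = 0.01, edgeR). Psmb9 measured 2.1, 1.68 and 2.23 CPM with saline and 6.72, 2.77 and 4 CPM with MPTP, a smaller difference on fewer counts (43 to 121 per library). The log2 fold change of 1.14 did not pass (SE 0.316, adjusted p = 0.0856, edgeR).

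Without Cre- MPTP replicate 1 the fold changes of 9 genes were smaller and that of B2m larger, and 9 of 10 genes were called higher, all but Psmb9 (log2 fold change 0.76, adjusted p = 0.0823, edgeR). H2-Q4 then changed by 2.94, Psmb8 by 2.01, H2-K1 by 1.61, Tap1 by 1.51, H2-T23 by 1.33, H2-D1 by 1.14 and Tap2 by 0.72 on the log2 scale. Without Cre- Saline replicate 2 the count of 7 was 3, and without Cre- Saline replicate 3 it was 4. The CPM of Cre- MPTP and Cre- Saline libraries did not overlap for 9 of the 10 genes, beside 7.11% of all tested genes that were higher without overlap. In these bulk tissues, a change in the number of cells of a type and a change of RNA per cell cannot be told apart.

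**Figure D2:**
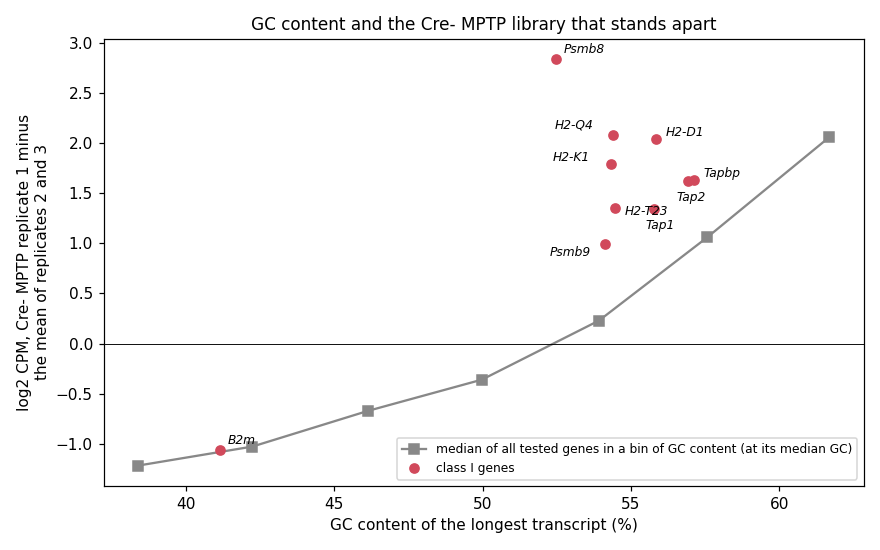
Difference in log2 CPM between Cre- MPTP replicate 1 and the mean of replicates 2 and 3 (y axis) against the GC content of the longest transcript (x axis, %), for the 10 class I genes (red) and as the median of all tested genes in bins of GC content (gray). B2m (41.2% GC) lies on the gray line at -1.06, and the other 9 genes (52.5 to 57.1% GC) lie above it, between 1 and 2.84.

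Base composition was set beside the values of Cre- MPTP replicate 1. B2m, with 41.2% GC, was 1.06 lower on the log2 scale in replicate 1 than the mean of replicates 2 and 3, and the other 9 genes, with 52.5 to 57.1% GC, were 1 to 2.84 higher. When a smooth trend on GC content was removed from every library, B2m measured 140 CPM in replicate 1, between its values of 124 and 180 CPM in replicates 2 and 3. The other 9 genes were still highest in replicate 1 after that step, by 0.69 (Tapbp) to 2.78 (Psmb8) on the log2 scale, with H2-D1 at 573 against 168 and 284 CPM and Psmb8 at 125 against 12.9 and 25.7 CPM. With the trend removed, all 10 genes passed the test for MPTP in Cre- mice, and the log2 fold changes were 0.95 for B2m, 0.84 for Tapbp and 1.07 for Psmb9.

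In Cre+ mice, the same dosing gave positive fold changes of 0.1 to 1.5 on the log2 scale for all 10 genes, and none was called by edgeR. No gene of the 19360 was called in either direction here (0%). An unadjusted p under 0.05 (edgeR) was found for 6 of the 10 and for 672 of the 19360. DESeq2 also called 0 of the 10, and limma voom with sample weights called 6. The share of all tested genes that limma voom called is not given here. The median log2 fold change was 0.73 over the 10 genes and 0.0034 over all tested genes. H2-Q4 measured 8.44, 7 and 5.45 CPM in Cre+ Saline and 19.6, 18.1, 21.3 and 19.9 CPM in Cre+ MPTP libraries, a log2 fold change of 1.5 (SE 0.451, adjusted p = 0.822, edgeR). All 4 MPTP libraries lay above all 3 saline libraries. H2-D1 measured 91.9, 87.7 and 89.8 CPM with saline and 133, 106, 150 and 142 CPM with MPTP, again without overlap. H2-K1 measured 41.4, 40.2 and 38.5 CPM with saline and 79.9, 55.6, 87.8 and 72.5 CPM with MPTP. Both classical heavy chains thus moved the same way in all 4 MPTP mice, at levels below those of Cre- MPTP. Psmb8 measured 4.18, 3.7 and 3.85 CPM with saline and 6.73, 8.28, 10.7 and 8.59 CPM with MPTP. H2-T23 ranged from 14.7 to 18.4 CPM with saline and from 21.7 to 30 CPM with MPTP, Tap1 from 4.49 to 6.63 and from 7.55 to 11.4 CPM, and Tap2 from 16.3 to 18.5 and from 20.8 to 22.9 CPM. The groups were apart for 9 of the 10 genes, beside 5.06% of all tested genes that were higher without overlap, and Tapbp was the member whose ranges overlapped (42.3 to 47.8 CPM with saline, 46 to 51.3 CPM with MPTP). Among the 4 Cre+ MPTP libraries replicate 2 was the lowest for 9 of the 10 genes, all but Psmb8.

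B2m in Cre+ mice measured 75.4, 62.4 and 71.9 CPM with saline and 112, 98.5, 124 and 114 CPM with MPTP (log2 fold change 0.68, SE 0.238, adjusted p = 1, edgeR). This fold change was close to that of B2m in Cre- mice with all libraries kept (0.79). Psmb9 likewise had log2 fold changes of 1.04 in Cre+ mice (SE 0.301, adjusted p = 0.729, edgeR) and 1.14 in Cre- mice. Leaving out the library with the muscle signal (Cre+ MPTP replicate 4), 0 of 10 genes were called by edgeR, and the log2 fold changes of H2-Q4 and B2m were 1.5 and 0.67.

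**Figure D3:**
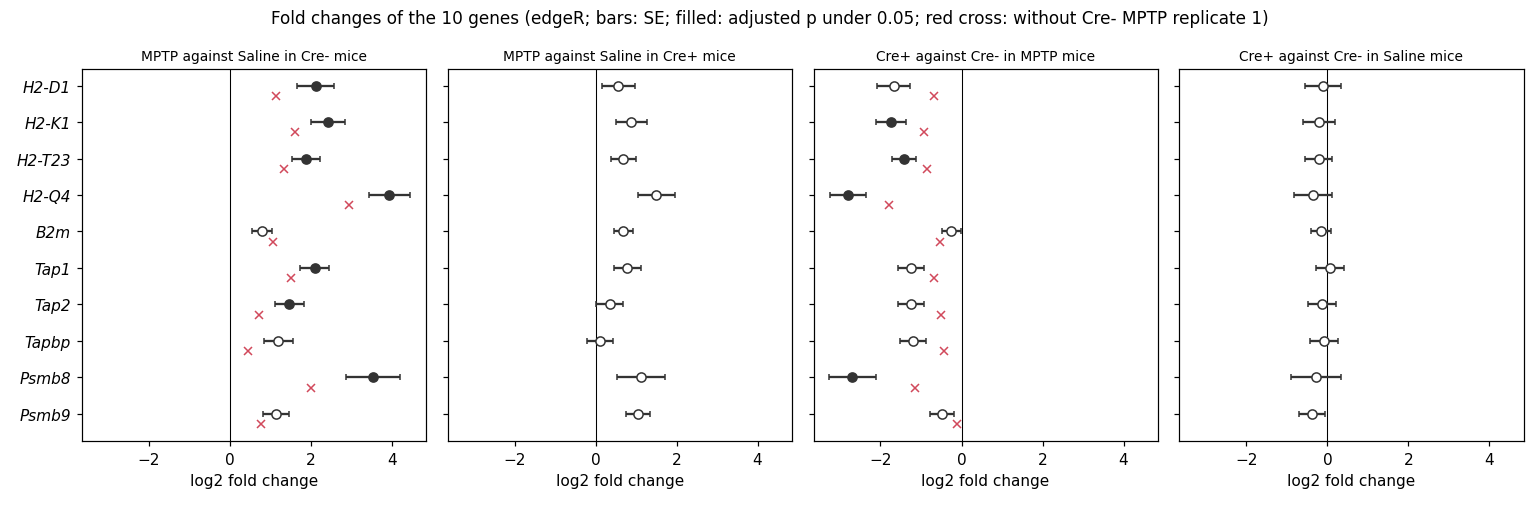
Log2 fold changes of the 10 genes (x axis) in 4 comparisons, with bars for the standard error, filled points for an adjusted p under 0.05 in edgeR and red crosses for the value without Cre- MPTP replicate 1. 7 genes are filled for MPTP in Cre- mice, 4 for Cre+ against Cre- in MPTP mice, and 0 in the other 2 panels.

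Between the genotypes after MPTP, 4 genes were lower in Cre+ than in Cre- mice: H2-K1, H2-T23, H2-Q4 and Psmb8. H2-Q4 was 6.96-fold lower, Psmb8 6.47-fold, H2-K1 3.36-fold and H2-T23 2.68-fold. All 10 fold changes were negative, with a median of -1.34 on the log2 scale, against 0.03 over all tested genes. By edgeR, 1.03% of all tested genes were called lower. This comparison and that of MPTP in Cre- mice share the 3 Cre- MPTP libraries, so each replicate of that group moves both.

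The 4 Cre+ MPTP libraries of H2-Q4 (18.1 to 21.3 CPM) lay below all 3 Cre- MPTP libraries (47.3 to 276 CPM), with a log2 fold change of -2.8 (SE 0.436, adjusted p = 0.0115, edgeR). Psmb8 measured at most 10.7 CPM in Cre+ MPTP and at least 12.7 CPM in Cre- MPTP libraries, with a log2 fold change of -2.69 (SE 0.573, adjusted p = 0.0396, edgeR). H2-K1 was apart as well, at 55.6 to 87.8 against 104 to 467 CPM, with a log2 fold change of -1.75 (SE 0.373, adjusted p = 0.0396, edgeR). For H2-T23 the ranges were 21.7 to 30 and 34.5 to 117 CPM, with a log2 fold change of -1.42 (SE 0.307, adjusted p = 0.0406, edgeR). In each of these 4 genes every Cre+ MPTP library sat above every Cre+ Saline library and below the lowest Cre- MPTP library.

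H2-D1 missed the threshold with a log2 fold change of -1.67 (SE 0.409, adjusted p = 0.0717, edgeR), although its highest Cre+ MPTP library (150 CPM) was below its lowest Cre- MPTP library (155 CPM). Tap1, Tap2 and Tapbp had log2 fold changes of -1.26, -1.25 and -1.19, with adjusted p-values of 0.0878, 0.0919 and 0.103 (edgeR), and no overlap between the groups. B2m and Psmb9 were the members whose ranges overlapped. B2m had a log2 fold change of -0.26 (SE 0.233, adjusted p = 0.53, edgeR) and Psmb9 of -0.48 (SE 0.289, adjusted p = 0.372, edgeR). In all, 8 of 10 genes were lower in Cre+ MPTP without overlap, beside 5.07% of all tested genes.

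This count of 4 depended on the libraries. Without Cre- MPTP replicate 1 it was 6 (H2-K1, H2-T23, H2-Q4, Tap2, Tapbp and Psmb8), with smaller fold changes: -1.8 for H2-Q4 (adjusted p = 0.000583, edgeR), -1.16 for Psmb8 and -0.92 for H2-K1. It was 8 without Cre- MPTP replicate 2 or 3, 1 (H2-Q4) without Cre+ MPTP replicate 2 or 4, and 0 without Cre+ MPTP replicate 1 or 3, where the adjusted p of H2-Q4 was 0.051 and 0.0508 (edgeR). With the trend on GC content removed 8 genes were called lower, all but B2m and Psmb9. The sign of the 10 fold changes was negative in every one of these fits except that of B2m without Cre- MPTP replicate 3 (0.073).

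The interaction of genotype and MPTP asks whether the response differed between Cre+ and Cre- mice. All 10 interaction terms were negative, with a median of -1.26 on the log2 scale, but 0 were called by edgeR, where 0.0103% of all tested genes were called. An unadjusted p under 0.05 (edgeR) was found for 8 of the 10 terms and for 1116 of all 19360 tested genes. The largest was H2-Q4 at -2.44 (SE 0.635, adjusted p = 0.269, edgeR). H2-Q4 was called by DESeq2 (adjusted p = 0.0202), by limma voom (adjusted p = 0.0153) and by edgeR without Cre- MPTP replicate 1 (-1.44, SE 0.295, adjusted p = 0.0362), and no other member was called in these fits. Psmb8 had a term of -2.41 (SE 0.843, adjusted p = 0.605, edgeR), while those of B2m (-0.11) and Psmb9 (-0.096) were the smallest and the latter turned positive in 5 of 22 alternatives.

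In saline-treated mice, no class I gene passed the test between the genotypes: 0 of 10 were called by edgeR, DESeq2 or limma voom, and 0 had an unadjusted p under 0.05. The share of all tested genes called was also 0%. The log2 fold changes ran from -0.39 (Psmb9) to 0.059 (Tap1), and standard errors of 0.25 to 0.623 leave differences of that order undetectable here. 1 of 10 genes (Psmb9) was lower in Cre+ Saline without overlap, at 1.302 to 1.675 against 1.679 to 2.227 CPM, beside 5.71% of all tested genes.

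The ratio of immunoproteasome to standard catalytic subunits was computed per library from TPM. Psmb8 stands in for Psmb5, and their ratio was 0.0174 to 0.0189 in Cre- Saline and 0.0159 to 0.0197 in Cre+ Saline libraries. It was 0.21, 0.0669 and 0.108 in Cre- MPTP replicates 1, 2 and 3, and 0.0353 to 0.0511 in Cre+ MPTP libraries, so the 2 MPTP groups and the saline groups formed 3 ranges without overlap. Psmb9 stands in for Psmb6, with ratios of 0.0084 to 0.0119 in Cre- Saline, 0.0169 to 0.0308 in Cre- MPTP and 0.0125 to 0.0226 in Cre+ MPTP libraries; here the MPTP groups overlapped. The third subunit Psmb10, which stands in for Psmb7, had ratios of 0.533 to 0.739 in Cre- Saline and 0.539 and 0.819 in Cre- MPTP replicates 2 and 3, but 6.05 in replicate 1. In that library Psmb10 (56.5% GC) was high at 131 CPM and Psmb7 (40.8% GC) low at 43.4 CPM. The summed TPM of the 4 heavy chains relative to B2m was 0.623 to 0.891 in Cre- Saline, 0.817 and 1.04 in Cre- MPTP replicates 2 and 3, 7.31 in replicate 1, and 0.672 to 0.763 in Cre+ MPTP libraries.

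**Figure D4:**
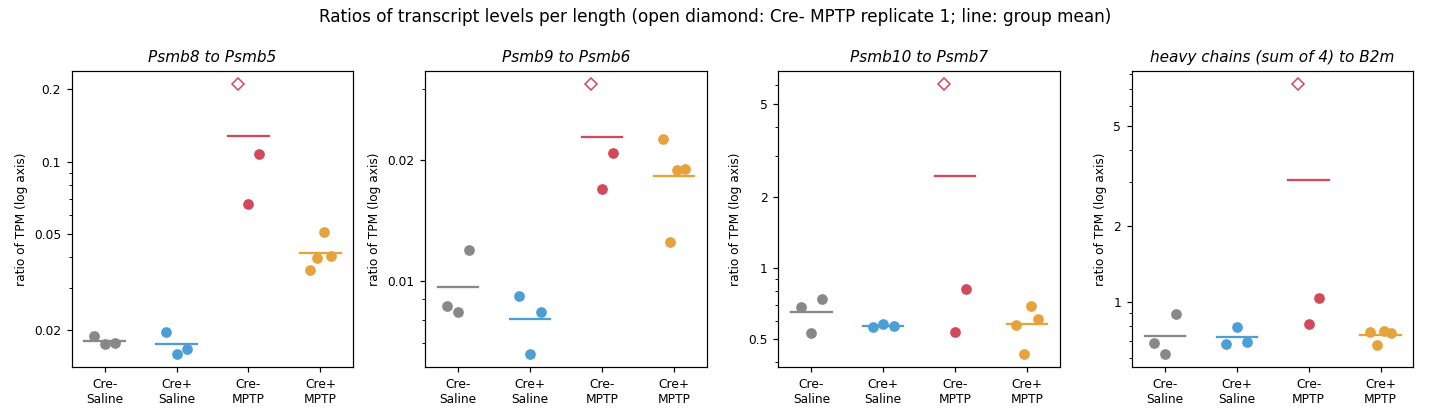
Ratios of TPM in each library (y axis, log scale) for the 3 pairs of immunoproteasome and standard subunits and for the sum of 4 heavy chains over B2m, by group, with a line at the group mean and an open diamond for Cre- MPTP replicate 1. The ratio of Psmb8 to Psmb5 separates Cre- MPTP (0.0669 to 0.21), Cre+ MPTP (0.0353 to 0.0511) and saline (0.0159 to 0.0197), and the 2 ratios on the right set replicate 1 apart.

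The 10 genes varied together across the libraries. Pearson's r of a gene with the mean log2 CPM of the other 9 was 0.9 to 0.996 over the 13 libraries for 9 genes and 0.409 for B2m, and without Cre- MPTP replicate 1 it was 0.858 to 0.99 for all 10, with B2m at 0.964. The libraries share their groups, so these values describe the group differences as well. With the group means removed and replicate 1 left out, the median r over the 45 pairs of genes was 0.596, with a range of -0.17 to 0.931. The genes outside the pathway whose levels followed the mean of the 10 most closely were Bst2 (tetherin, an interferon-induced antiviral membrane protein, r = 0.987), Slc11a1 (0.982), Matn2 (0.979), Arpc1b (0.977) and Tinagl1 (0.972), over 13 libraries and 15995 genes compared. Without replicate 1 the closest 4 were Itgam, Fcer1g, Bst2 and Lgals3bp, with r between 0.97 and 0.975.

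Other genes of the pathway were described from lists of named genes. Of 15 tested heavy chain genes outside the 10, 2 passed the test for MPTP in Cre- mice by edgeR, H2-Q6 and H2-Q7, which encode Qa-2 molecules. H2-Q6 measured 2.18 to 3.62 CPM in Cre- Saline and 12 to 26.2 CPM in Cre- MPTP libraries (log2 fold change 2.58, adjusted p = 0.00839, edgeR). H2-Q7 measured 1.72 to 2.06 and 6.85 to 28.2 CPM (log2 fold change 3.05, adjusted p = 0.0143, edgeR). Neither call remained without Cre- Saline replicate 1 or 2, and 1 did without replicate 3. In Cre+ mice both genes were also apart from saline, H2-Q6 with 3.47 to 14.4 CPM after MPTP, with log2 fold changes of 2.77 (adjusted p = 0.138, edgeR) and 2.46 (adjusted p = 0.391, edgeR). DESeq2 called both in Cre+ mice, with an adjusted p of 2.869e-06 for H2-Q6 and 0.00447 for H2-Q7. These genes are near copies of one another, and counts may have been split between them or lost. Among the 10 genes, shared sequence was limited: 10.5% of 150-base windows of the H2-Q4 transcript occur in another gene (Gm11131, an antisense gene over H2-Q4 with at most 24 counts), 8.7% for Tapbp, 1.8% for H2-D1 (shared with H2-Q1), and 0 to 0.7% for the rest.

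Of 9 genes of peptide loading and trimming, such as Calr, Canx, Pdia3 and Erap1, 0 were called in either direction by edgeR in Cre- mice after MPTP (3 with an unadjusted p under 0.05), and their median log2 fold change was 0.22. The 14 standard 20S subunits had 0 calls (1 with an unadjusted p under 0.05) and a median of -0.24, and the 5 partners of the immunoproteasome had 0 calls (2 with an unadjusted p under 0.05) and a median of 0.15. In this comparison 2897 of all 19360 tested genes had an unadjusted p under 0.05 (edgeR). Psmb10 had a log2 fold change of 0.83 (adjusted p = 0.334, edgeR), and the standard subunits Psmb5, Psmb6 and Psmb7 of 0.39, -0.13 and -0.37 (adjusted p = 0.577, 0.677 and 0.578, edgeR). DESeq2 called 1 loading gene and 0 partners, limma voom 5 and 2, and neither called a standard subunit.

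Of 24 tested genes of class I transcription and interferon signaling, 5 were higher and 0 lower after MPTP in Cre- mice by edgeR, among them Nlrc5, Irf9, Stat2 and Tnf. This count was 7 without Cre- MPTP replicate 1, 3 without replicate 2 or without Cre- Saline replicate 3, and 2 without any 1 of Cre- MPTP replicate 3, Cre- Saline replicate 1 and Cre- Saline replicate 2. Nlrc5, the class I transactivator, measured 0.992, 0.937 and 1.86 CPM in Cre- Saline and 5.31, 13.3 and 9.21 CPM in Cre- MPTP replicates 1, 2 and 3 (log2 fold change 2.88, SE 0.371, adjusted p = 0.00154, edgeR). In Cre+ MPTP it measured 4.99, 4.76, 5.46 and 3.47 CPM, against 1.1 to 1.59 CPM in Cre+ Saline (log2 fold change 1.79, adjusted p = 0.247, edgeR). DESeq2 called Nlrc5 (adjusted p = 0.000304) and Irf9 (log2 fold change 0.83, adjusted p = 0.00123) in Cre+ mice as well. Irf9 and Stat2, which act together downstream of interferon receptors, had log2 fold changes of 1.25 (adjusted p = 0.00253, edgeR) and 0.63 (adjusted p = 0.0303, edgeR) in Cre- mice. Irf1, a direct activator of class I promoters, had 0.74 (adjusted p = 0.0803, edgeR), and passed with DESeq2 (adjusted p = 0.00738), without Cre- MPTP replicate 1 (0.71, adjusted p = 0.0424, edgeR) and with the GC trend removed (adjusted p = 0.0468, edgeR). Tnf, a cytokine that signals through NF-kB, had 1, 20 and 24 counts in Cre- MPTP libraries and 0 or 1 in Cre- Saline libraries, and it had 4, 5, 2 and 11 counts in Cre+ MPTP and 0 in all Cre+ Saline libraries (adjusted p = 0.58, edgeR). The interferon genes Ifng and Ifnb1 had 0 counts in all 13 libraries, which allows up to 3 counts in each.

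Between the genotypes after MPTP, 0 of these 24 genes were called by edgeR (10 with an unadjusted p under 0.05), 3 by DESeq2 and 6 by limma voom. Of all 19360 tested genes, 3684 had an unadjusted p under 0.05 here (edgeR). Nlrc5 had a log2 fold change of -1 (SE 0.316, adjusted p = 0.169, edgeR) and Irf9 of -0.61 (adjusted p = 0.108, edgeR). Without Cre- MPTP replicate 1, where both were at their lowest within the group, the values were -1.27 (adjusted p = 0.0167, edgeR) and -0.71 (adjusted p = 0.0167, edgeR). Of 11 receptors and effectors of class I, only Pirb passed the filter on low counts. Pirb, an inhibitory receptor for class I on myeloid cells, measured 0.43 to 0.584 CPM in Cre- Saline, 3.57 to 7.96 CPM in Cre- MPTP and 0.887 to 2.07 CPM in Cre+ MPTP libraries. MPTP raised it in Cre- mice (log2 fold change 3.4, adjusted p = 0.00253, edgeR), and it was lower in Cre+ than in Cre- mice after MPTP (-1.92, adjusted p = 0.0399, edgeR), a call that did not pass without Cre- MPTP replicate 3 or Cre+ MPTP replicate 1, 3 or 4.

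**Figure D5:**
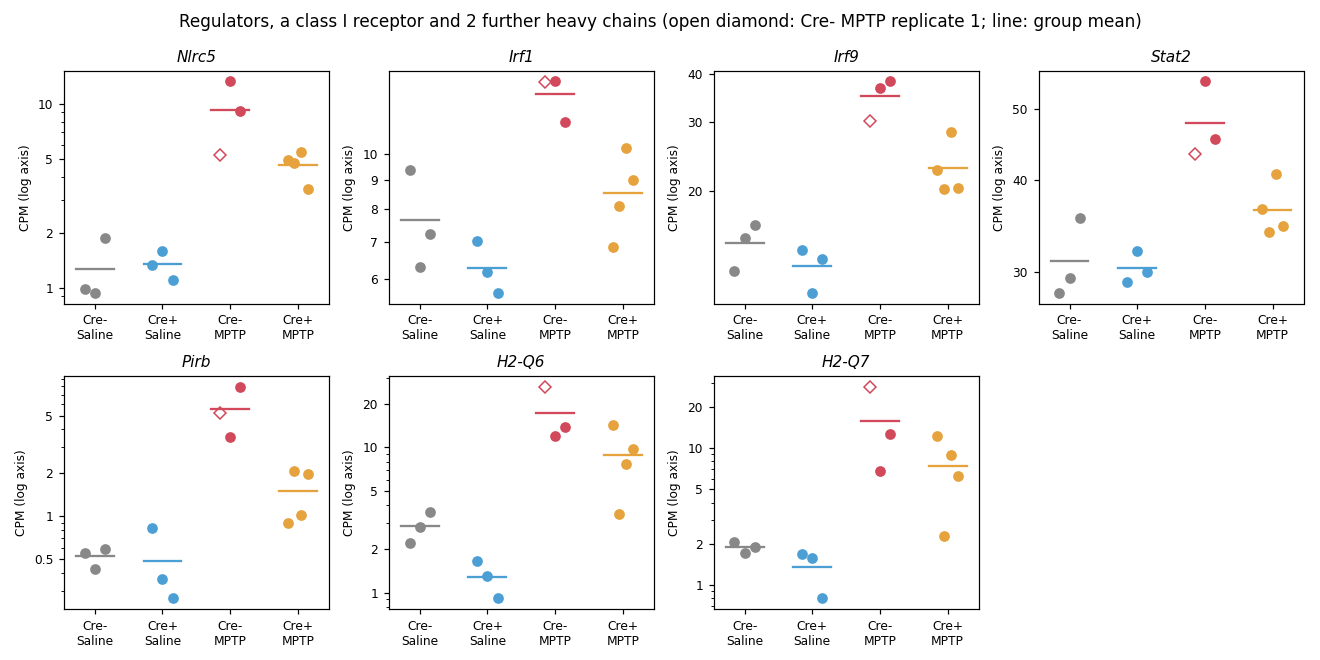
CPM in each of the 13 libraries (y axis, log scale) of the regulators Nlrc5, Irf1, Irf9 and Stat2, the class I receptor Pirb, and the heavy chains H2-Q6 and H2-Q7, by group, with a line at the group mean and an open diamond for Cre- MPTP replicate 1. Nlrc5, Irf9 and Stat2 are lowest in replicate 1 within Cre- MPTP, while H2-Q6 and H2-Q7 are highest there.

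Markers of cell types that carry class I were set beside these results. The summed level of 8 neutrophil markers was 16.2, 10.5 and 67.1 CPM in Cre- MPTP replicates 1, 2 and 3, and 0.119 to 4.14 CPM in the 10 other libraries, and S100a8, S100a9, Retnlg and Mmp8, 4 of the 5 tested, were called higher after MPTP in Cre- mice and lower in Cre+ than in Cre- mice after MPTP (edgeR). Ly6g had at most 3 counts in every library. Of the 3 Cre- MPTP libraries, replicate 1, the library with the GC trend, was highest for 9 of the 10 class I genes and replicate 3 for the neutrophil sum. Between replicates 2 and 3, replicate 3 was higher for the neutrophil sum and for every class I gene but Tap1 (14 against 16.2 CPM). The 10 markers of T and NK cells summed to 0.325 to 3.89 CPM over all libraries, with Cd8b1, Ncr1 and Nkg7 at 3 counts or fewer in each. The 9 astrocyte markers summed to 6089 to 6652 CPM in Cre- MPTP and 4466 to 5418 CPM in the other libraries, with Gfap and Aldh1l1 called higher in Cre- mice after MPTP and Gfap lower in Cre+ than in Cre- mice after MPTP. Gfap alone measured 1242 to 3171 CPM in Cre- MPTP and 292 to 655 CPM elsewhere, and the other 8 astrocyte markers summed to 2918, 4997 and 5029 CPM in Cre- MPTP replicates 1, 2 and 3 and to 4174 to 4837 CPM elsewhere.

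The 10 microglia markers summed to 215 to 377 CPM in Cre- MPTP and 274 to 397 CPM in Cre+ MPTP libraries, where Itgam was called higher and P2ry12, Siglech and Fcrls lower with MPTP in Cre- mice. P2ry12, Siglech and Fcrls were also called higher in Cre+ than in Cre- mice after MPTP, by 2.12, 2.75 and 2.72 on the log2 scale, and P2ry12 for the interaction (2.25, adjusted p = 0.024, edgeR). Markers of macrophages and monocytes summed to 19.3 to 57.3 CPM in Cre- MPTP, 27.4 to 54.6 CPM in Cre+ MPTP and 27.4 to 39 CPM in saline libraries, with Ly6c2 called higher and Mrc1 lower after MPTP in Cre- mice. Endothelial markers summed to 295 to 458 CPM over all libraries, with Tek called lower in that comparison. Mrc1, Kdr and Tek were called higher in Cre+ than in Cre- mice after MPTP. Oligodendrocyte markers summed to 9690 to 12420 CPM in Cre- MPTP and 13030 to 18080 CPM in Cre- Saline libraries, with Mog and Cnp called lower, and to 11620 to 15090 CPM in Cre+ MPTP and 15730 to 17640 CPM in Cre+ Saline libraries, with 0 calls by edgeR (2 with an unadjusted p under 0.05). Neuron markers summed to 2452 CPM in Cre- MPTP replicate 1 and 4079 to 4715 CPM in the 12 others. The part that any of these cell types had in the class I levels was not tested.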

How the data were processed

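Bulk RNA-Seq libraries of 13 midbrains were used (total RNA, paired reads of 2 × 150 bases). The authors used Trimmomatic 0.36 for adapters, STAR 2.5.2b for mapping (GRCm38) and featureCounts (Subread 1.5.2) for unique gene hits. What the authors deposited are the raw counts per gene. The strand setting and the annotation release are not given in the sources used here. Unique counting may leave out reads shared by near-identical class I genes.

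Gene symbols came from GENCODE M21. edgeR 4.0.16 (R 4.3.3) was used with TMM factors, a filter of 10 counts in 3 libraries, 1 term per group over all 13 libraries and quasi-likelihood tests, with Benjamini-Hochberg adjustment over 19360 genes and calls at 0.05. Standard errors are the absolute log2 fold change over the square root of F. Each library is 1 mouse, so p-values measure the spread between mice. Totals of 11489150 to 29397278 counts per library limit the precision for rare transcripts such as Tnf and Ripk3.

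The 10 genes, the lists and the rule for named genes were chosen with earlier results of these data known. The lists were other class I heavy chains, peptide loading and trimming, immunoproteasome partners, standard 20S subunits, class I transcription and interferon signaling, class I receptors and effectors, and markers of T and NK cells, microglia, astrocytes, endothelial cells, macrophages and monocytes, neutrophils, oligodendrocytes, dopaminergic neurons, neurons and muscle. Named genes were the 10, every list gene outside the markers that was called with MPTP in Cre- mice or between genotypes after MPTP, the 4 catalytic subunits Psmb5, Psmb6, Psmb7 and Psmb10, Nlrc5, Irf1, Ripk3, and the 5 genes with a mean of at least 1 CPM and the largest r to the mean of the 10. One item that this rule names is not reported here. Alternatives were DESeq2 1.42.0, limma 3.58.1 (voom with sample weights), edgeR on the 2 groups, DESeq2 size factors and other filters. Further ones were a replicate block and a term for the first digit of the animal number. Each library was also left out, in the comparisons that use its group. Removal of a GC trend was added after the data were seen. The fits were also run on simulated counts with the same spread for every gene. Those counts held no GC trend and no library that stood apart, so that run does not cover these features.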

Additional observations from a re-analysis of the deposited data

How the results depend on the processing

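Over 880 values of the 10 log2 fold changes under the alternatives, 771 kept their direction and their side of the threshold. Significance was lost in 42 and gained in 55, and 12 changed sign. Of the losses, 20 were among 160 values for MPTP in Cre- mice and 22 among 170 between genotypes after MPTP. Those values include genes that were not called. The other comparisons had no called member, so no call could be lost there, and the pooled total overstates how stable the calls were. The count of 7 genes raised by MPTP in Cre- mice was 10 with DESeq2, limma voom or the GC trend removed. It was 0 with edgeR on the 2 groups, and 3 to 9 with 1 Cre- library left out. The count in Cre+ mice (0) was 6 with limma voom and 2 with edgeR on the 2 groups. It was 0 with any 1 Cre+ library left out and 1 when both Cre- MPTP replicate 1 and Cre+ MPTP replicate 4 were left out. Leaving out a Cre- library alone was not run for this comparison. The count of 4 between genotypes after MPTP was 8 with DESeq2, 9 with limma voom, 8 with the GC trend removed, 0 with edgeR on the 2 groups, and 0 to 8 with 1 library left out. The interaction (0) had 1 gene with DESeq2, limma voom or that pair of libraries left out, and 0 to 1 with 1 left out. In saline mice the count was 0 under all 16 alternatives. The shares of all tested genes called by each alternative are not given beside these counts. The counts alone therefore do not tell a fit that calls more genes of any kind from a difference in the members. Mouse number as a replicate block gave 5 genes for MPTP in Cre- mice and 0 between genotypes after MPTP. No pairing by mouse number was seen in r of deviations from group means. It ranged from -0.18 to 0.18 over 18 same-numbered pairs, 3 above 0.1, and from -0.18 to 0.24 over 45 other pairs. Only 5 of 13 libraries correlated best with their own number. With 3 or 4 mice per group, these values cannot exclude a pairing.

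Sign changes were small. Tapbp with MPTP in Cre+ mice was -0.033 with the animal-number term. Between genotypes in saline mice, limma voom gave 0.0064 for H2-D1 and 0.035 for Tap2, and Tap1 ranged from -0.095 to 0.27 with 1 library left out. B2m between genotypes after MPTP ranged from -0.54 to 0.073 and its interaction from -0.39 to 0.22 with 1 library left out. The interaction of Psmb9 was 0.12 with limma voom, 0.21 without the same pair, and -0.34 to 0.29 with 1 left out. The cause of these changes was not tested. Low counts limit Psmb9, Tnf and Ripk3.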

Other observations

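Within Cre- MPTP, the 24 tested regulators split in replicate 1, where 9 were highest of the 3 libraries, 13 lowest and 2 between. H2-D1, H2-K1, H2-T23, H2-Q4, Tap1, Tap2, Tapbp, Psmb8 and Psmb9 were highest in it, by 1 to 2.84 on the log2 scale over the mean of replicates 2 and 3. Nlrc5, the class I transactivator, was lower in it by -1.05, Irf9 by -0.31 and Stat2 by -0.2. Tnf was lower in it by -2.19, at 0.108 against 0.792 and 0.792 CPM, a difference that rests on few counts. Socs1, an inhibitor of cytokine signaling, was higher in it, at 13.1 against 1.78 and 1.68 CPM, as were Rfxap, a subunit of the RFX complex (156.5 against 29.2 and 32.7 CPM), and Irf8 (20.7 against 7.88 and 9.87 CPM). Nlrc5 (52.6% GC), Psmb8 (52.5% GC) and Tnf (52.1% GC) have similar base composition, and Psmb8 was 2.84 higher there. What set these genes apart in that library was not tested. Fcgrt, the neonatal Fc receptor and a relative of the class I heavy chains, measured 22.8 CPM in replicate 1 and 9.78 and 11.5 CPM in replicates 2 and 3, against 19.7 to 25.4 CPM in Cre- Saline libraries. H2-M3, which presents formylated peptides, measured 2.06, 4.83 and 7.96 CPM in Cre- MPTP replicates 1, 2 and 3, against 4.53 to 5.29 CPM with saline. Socs1, Rfxap, Irf8, Fcgrt and H2-M3 were chosen after their values were seen. Their values are given without removal of the GC trend of replicate 1, and the part of that trend in them was not tested.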
